A study of Homo sapiens with 2 samples.

Results

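The BCL2 family of apoptosis regulators was examined in CL1-0 cells carrying an FDFT1 vector and in CL1-0 cells carrying a control vector. The 10 genes taken as members were the anti-apoptotic BCL2, BCL2L1, MCL1 and BCL2L2, the effectors BAX and BAK1, and the BH3-only genes BID, BAD, BBC3 and BCL2L11. They were found through the gene symbols of the array annotation, and 9 of the 10 had at least 1 probe set listed under their symbol alone, out of 19775 genes on the array. These 9 genes had 32 probe sets, and each was followed separately. BBC3, which encodes PUMA, was listed only on a probe set that also names 2 microRNA genes, so BBC3 has no value of its own here.

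The CL1-0 line comes from a human lung adenocarcinoma, and the labels give its cell type as type II alveolar. Both lines were grown at 37 °C in 5% CO2, stably transduced and kept under puromycin for 2 weeks, and they differed, as far as the labels say, in the vector alone. FDFT1 encodes squalene synthase, which commits the mevalonate pathway to sterols. Total RNA was labelled with biotin and hybridised to Affymetrix expression arrays, with 1 array for each line, so there is no replicate and no difference carries a p-value. The labels do not say whether a line was 1 clone or a pool.

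The BCL2 family decides whether the outer mitochondrial membrane is opened during apoptosis. BAX and BAK1 form the pores that release cytochrome c, BCL2 and its anti-apoptotic relatives hold them in check, and the BH3-only proteins either neutralise these guardians or activate the effectors directly. In lung adenocarcinoma MCL1 and BCL-XL, the long product of BCL2L1, are well-known survival factors, and the BCL2L11 product BIM is known for its part in the response to kinase inhibitors.

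The values are MAS5 signals in arbitrary units. The control array had a median signal of 12.3 and the FDFT1 array one of 12.1. Signals are given as deposited, always first for the control and then for the FDFT1 array. Differences are log2 values of FDFT1 minus control, centred so that the median probe set lies at 0, which raised the FDFT1 array by 0.11, since that array was at -0.11 before. Signals under 12.2, the median of all signals, were set to that floor after centring, and a probe set was measured if its higher signal reached it. The error given with a difference is a probe-level error, taken from the disagreement between the 2 brightest probe sets of genes across the array. Where the mean log2 signal was under 5 this error was 0.50; it was 0.31 between 5 and 7, 0.22 between 7 and 9, 0.16 between 9 and 11, and 0.10 beyond. It leaves out variation between cultures. Of 24949 measured probe sets with 1 gene, 0.858% were at least 2-fold higher with FDFT1 and 0.794% at least 2-fold lower, and 5.13% and 4.47% passed 1.5-fold.

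The RefSeq windows upstream of the starts of 3 members are given because their values stand in the centre of what follows: BAX and BAK1, the effectors, whose probe sets all lay below 0, and BCL2L1, whose probe sets disagreed. Each window holds the 250 bases before the annotated start, 5′ to 3′ on the gene's strand, in GRCh38.p14. The BAX window is chr19:48954625-48954874 on the plus strand, the BAK1 window chr6:33580277-33580526 on the minus strand and the BCL2L1 window chr20:31723964-31724213 on the minus strand. Capitals mark letters found in a search of both strands for the GC box GGGCGG, the CCAAT box, the TATA box as TATAAA, the E-box as CACGTG and the sterol regulatory element as TCACNCCAC. No matches overlap in these windows.
BAX: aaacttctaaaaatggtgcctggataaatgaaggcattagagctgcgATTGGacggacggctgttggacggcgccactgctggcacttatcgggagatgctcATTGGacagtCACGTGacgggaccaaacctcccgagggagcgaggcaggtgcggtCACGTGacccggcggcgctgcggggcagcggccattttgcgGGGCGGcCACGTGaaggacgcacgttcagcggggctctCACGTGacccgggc
BAK1: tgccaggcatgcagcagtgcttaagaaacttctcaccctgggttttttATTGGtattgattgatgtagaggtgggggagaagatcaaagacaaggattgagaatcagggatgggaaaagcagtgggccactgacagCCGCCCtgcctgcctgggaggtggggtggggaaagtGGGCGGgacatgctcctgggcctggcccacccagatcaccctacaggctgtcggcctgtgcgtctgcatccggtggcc
BCL2L1: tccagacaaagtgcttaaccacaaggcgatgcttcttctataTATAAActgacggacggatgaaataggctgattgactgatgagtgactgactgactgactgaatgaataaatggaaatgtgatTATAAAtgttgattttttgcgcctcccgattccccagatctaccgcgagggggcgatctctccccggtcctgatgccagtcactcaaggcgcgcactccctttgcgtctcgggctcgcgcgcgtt
The BAX window held 4 E-boxes, 1 GC box and 2 CCAAT boxes, the BAK1 window 2 GC boxes and 1 CCAAT box, and the BCL2L1 window 2 TATAAA matches. Across all 35116 RefSeq windows of this length, 6.34% held an E-box, 42.6% a GC box, 32.0% a CCAAT box and 10.7% a TATAAA match. RefSeq gave BCL2L1 another start, with its window at chr20:31722869-31723118 on the minus strand, where none of the 5 motifs was found. The sterol element was found in none of the 14 windows of the 8 members searched (all but MCL1 and BCL2L2), against 0.883% of all windows. These matches describe letters in a window and were not tested as binding sites.

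Of the 32 member probe sets 30 were measured. None was at least 2-fold higher with FDFT1 and 2 (6.67%) were at least 2-fold lower, beside 0.858% and 0.794% of all measured probe sets. At 1.5-fold, 2 were higher (6.67%) and 3 lower, beside 5.13% and 4.47%. Both probe sets past 2-fold belonged to anti-apoptotic genes and were dim. In that signal range, a mean log2 signal under 5, 9 member probe sets were measured, and 2.22% of all probe sets there were at least 2-fold lower. In all, 12 member probe sets lay above 0 and 18 below (60.0%), beside 49.9% and 50.1% of all measured probe sets, with a median of -0.05, against a median of -0.00024 for all measured probe sets. The SD over the 30 differences was 0.42, and over all measured probe sets 0.35.

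**Figure D1:**
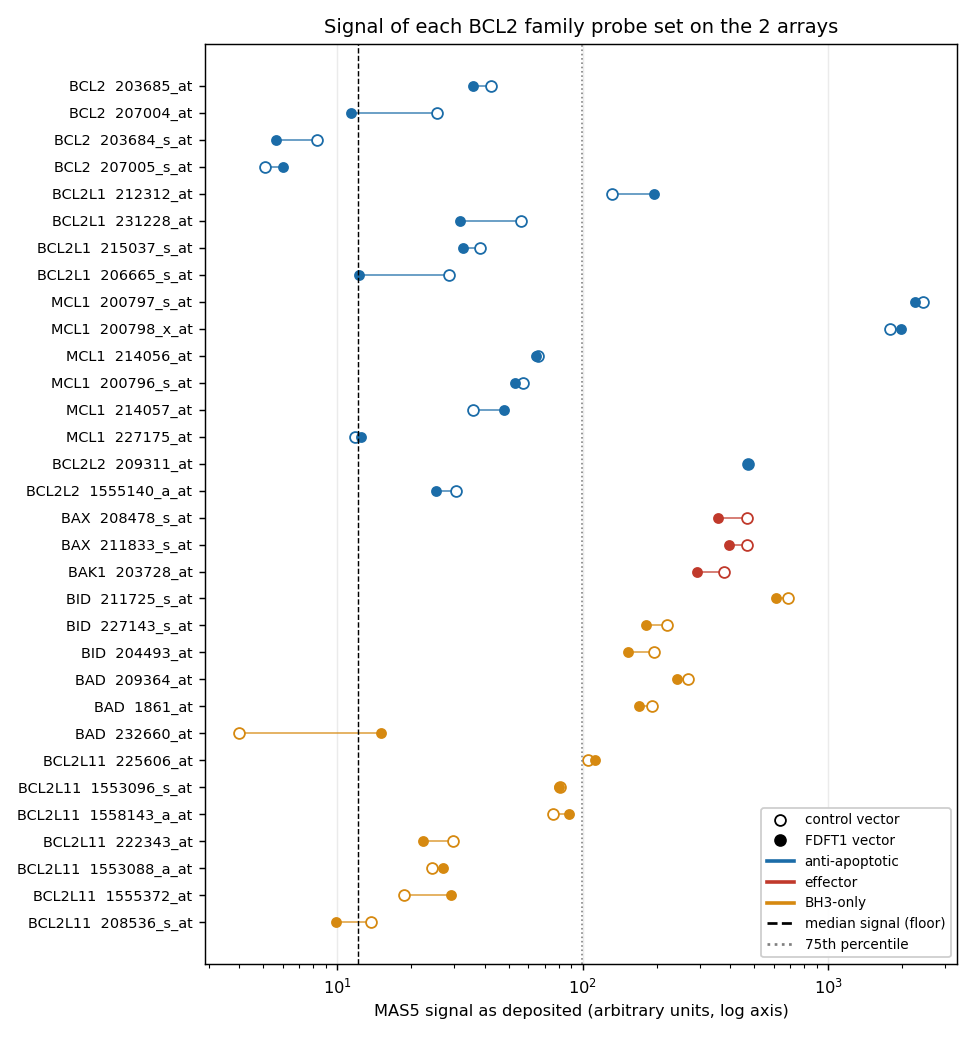
MAS5 signal of each of the 32 member probe sets on the control array (open circle) and the FDFT1 array (filled circle), on a log axis in arbitrary units, coloured by role; the dashed line is the floor of 12.2 and the dotted line the 75th percentile of all signals, 99.4. The pairs of BAX, BAK1 and BID lie to the right of the dotted line with the FDFT1 circle to the left of the control circle in each, and 2 BCL2 probe sets lie left of the dashed line. Signals are drawn before centring, where the FDFT1 array was at -0.11. Bright probe sets of BAD lie the same way, and the bright ones of BCL2L1 and BCL2L11 the other way.

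Signals of different probe sets depend on how well their probes bind, so they are not amounts of RNA that can be ordered between genes. What can be said is how many probe sets gave a bright signal. A signal at or above 99.4, the 75th percentile of all signals, was reached by 4 of 16 anti-apoptotic probe sets (2 of MCL1, 1 of BCL2L1 and 1 of BCL2L2), by 3 of 3 effector probe sets, and by 6 of 13 BH3-only probe sets. The anti-apoptotic probe sets that were measured ranged from 11.9 to 2438 in control cells and from 11.4 to 2263 in FDFT1 cells. The effector probe sets ranged from 375 to 468 and from 291 to 395. The BH3-only probe sets ranged from 3.99 to 687 and from 9.93 to 612. Both classes therefore gave bright signals in both lines, while no BCL2 signal was above 42.4.

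BCL2, the founding anti-apoptotic gene, was dim on every probe set. Probe set 203685_at, annotated with the transcript of the alpha form, gave 42.4 and 35.8, a difference of -0.14 with an error of 0.31. Probe set 207004_at, annotated with the transcript of the shorter beta form, gave 25.5 and 11.4, a difference of -1.05 with an error of 0.50, or 2.07-fold lower. Its FDFT1 signal after centring, 12.3, lay almost on the floor. The remaining BCL2 probe sets were not measured, at 8.30 and 5.63 for 203684_s_at and at 5.08 and 6.04 for 207005_s_at. The 2 measured BCL2 probe sets were both lower with FDFT1, but at signals that may be background, and 5.93% of the 3556 genes with 2 measured probe sets had a gap between them as wide as the 0.91 seen here. Here and below, the genes compared by gap share the number of measured probe sets but were not matched by signal.

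BCL2L1 encodes BCL-XL and, by splicing, the pro-apoptotic short form BCL-XS, and its probe sets went opposite ways. The brightest, 212312_at, gave 132 and 196, a difference of 0.68 with an error of 0.22, or 1.60-fold higher. This is 3.11 errors, more than for any other member probe set, and 1.66% of all probe sets with a mean log2 signal from 7 to 9 were at least 1.5-fold higher. Without centring the difference was 0.57, short of 1.5-fold (0.58). Probe set 231228_at gave 56.3 and 31.5, a difference of -0.73 with an error of 0.31, or 1.66-fold lower. Probe set 206665_s_at, annotated with the transcript of the short form, gave 28.5 and 12.3, a difference of -1.11 with an error of 0.50, or 2.15-fold lower. Probe set 215037_s_at gave 38.2 and 32.5, a difference of -0.12 with an error of 0.31. One probe set was thus higher and 3 lower, and the bright one was the higher. The gap between the highest and the lowest was 1.78, against a median gap of 0.61 over the 771 genes with 4 measured probe sets, of which 11 (1.43%), BCL2L1 included, had a gap as wide. These genes were not matched by signal, and the lowest BCL2L1 probe set, 206665_s_at, was dim with a large error. Which exons each probe set covers was not analysed here, so the splice forms were not measured separately, and the direction for BCL2L1 depends on the probe set.

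**Figure D2:**
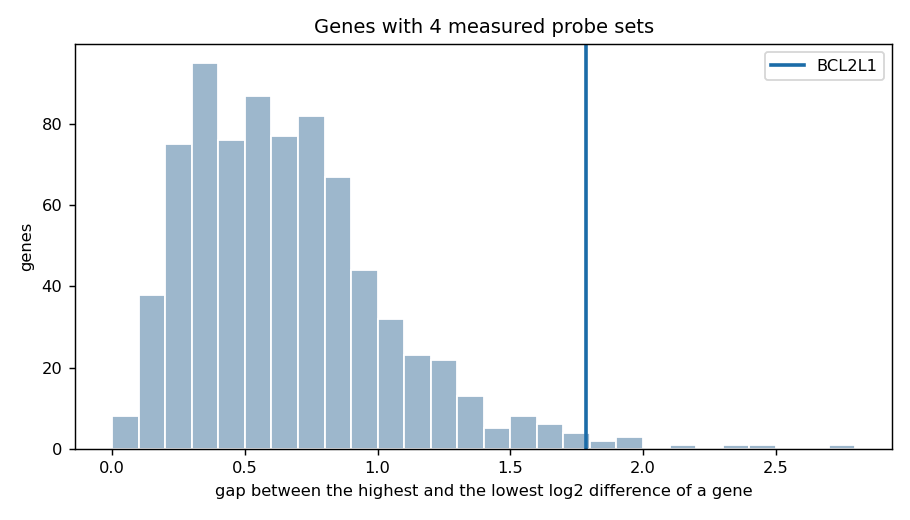
Number of genes (vertical axis) by the gap between the highest and the lowest log2 difference among their probe sets (horizontal axis), for the 771 genes with 4 measured probe sets. BCL2L1, the vertical line at 1.78, lies in the upper tail, while the median gene lies at 0.61. The genes were not matched by signal.

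MCL1, a short-lived guardian with rapid turnover of transcript and protein, gave bright signals that were nearly equal in both lines. Probe set 200797_s_at gave 2438 and 2263, a centred difference of -0.0017 with an error of 0.10. Probe set 200798_x_at, whose suffix marks probes that can match other sequences, gave 1785 and 1982, a difference of 0.26 with an error of 0.16. These bright probe sets placed MCL1 between no difference and 1.20-fold higher. The dimmer probe sets 214056_at, at 65.7 and 64.3, and 200796_s_at, at 57.1 and 53.0, differed by 0.08 and -0.0013, each with an error of 0.31. Probe set 214057_at was higher at 35.6 and 47.8, a difference of 0.53 with an error of 0.31. The last, 227175_at, lay at the floor with 11.9 and 12.5, a difference of at least 0.15 with an error of 0.50. Over the 6 probe sets the median was 0.11 and the gap 0.53, and 78.9% of the 133 genes with 6 measured probe sets had a gap as wide. Without centring, 200797_s_at was at -0.11.

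BCL2L2 encodes BCL-W, a guardian close in structure to BCL-XL. Probe set 209311_at gave 472 on both arrays, a centred difference of 0.10 with an error of 0.22. The dim 1555140_a_at gave 30.5 and 25.3, a difference of -0.16 with an error of 0.50. Neither lay beyond its error. Another probe set, 201544_x_at, listed BCL2L2 together with PABPN1 and their readthrough gene. It gave 4786 and 4171, a difference of -0.09, which cannot be assigned to any of these genes. Over all 14 measured anti-apoptotic probe sets 6 lay above 0 and 8 below, with a median of -0.0015.

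The effectors were bright and slightly lower with FDFT1. BAX gave 468 and 357 on 208478_s_at, a difference of -0.29, and 466 and 395 on 211833_s_at, a difference of -0.13, each with an error of 0.22. BAK1 gave 375 and 291 on 203728_at, its sole probe set, a difference of -0.26 with an error of 0.22. The 3 differences correspond to 1.22-fold, 1.10-fold and 1.20-fold lower, with a median of -0.26, and none reached 2 errors. Between mean log2 signals of 7 and 9, where all 3 lay, 53.6% of all probe sets were below 0.

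BID, the BH3-only protein that is cut by caspase-8 and links death receptors to mitochondria, was lower on each of its probe sets. Probe set 211725_s_at gave 687 and 612, a difference of -0.06 with an error of 0.16. Probe sets 227143_s_at, at 221 and 181, and 204493_at, at 196 and 153, differed by -0.18 and -0.24, each with an error of 0.22. The gap of 0.18 was narrow, since 85.2% of the 1762 genes with 3 measured probe sets had one as wide.

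BAD, a BH3-only protein that binds BCL2, BCL-XL and BCL-W and is held back by phosphorylation and 14-3-3 proteins, was nearly equal on its bright probe sets. Probe set 209364_at gave 267 and 242, a difference of -0.04, and 1861_at gave 192 and 170, a difference of -0.07, each with an error of 0.22. Probe set 232660_at gave 3.99 and 15.1. With the control signal under the floor its difference was at least 0.42 with an error of 0.50, and without the floor it was 2.03, at signals that may be background.

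BCL2L11 encodes BIM, which binds all the guardians, and it had 7 probe sets. Which of its transcripts each of them follows was not analysed here. The brightest, 225606_at, gave 105 and 112, a difference of 0.20 with an error of 0.31. Probe sets 1558143_a_at, at 75.5 and 87.6, and 1553096_s_at, at 81.1 and 80.4, differed by 0.32 and 0.09, each with an error of 0.31. All 3 brighter probe sets thus lay above 0 after centring, with 1 of them just beyond its error, and 1553096_s_at was at -0.01 without centring. Among the dim probe sets, with an error of 0.50 each, 1555372_at gave 18.8 and 29.1, a difference of 0.74 or 1.67-fold higher, and 1553088_a_at gave 24.5 and 26.9, a difference of 0.25. Probe set 222343_at gave 29.6 and 22.4, a difference of -0.30, and 208536_s_at gave 13.8 and 9.93, a difference of at most -0.18. In all 5 of the 7 lay above 0 and 2 below, with a median of 0.20. Of the BH3-only members with a value, BCL2L11 alone had its brightest probe set above 0, by less than its error. The probe set that lists BBC3 with MIR3190 and MIR3191, 211692_s_at, gave 59.5 and 32.7, a difference of -0.76 with an error of 0.31, and it was assigned to no gene.

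**Figure D3:**
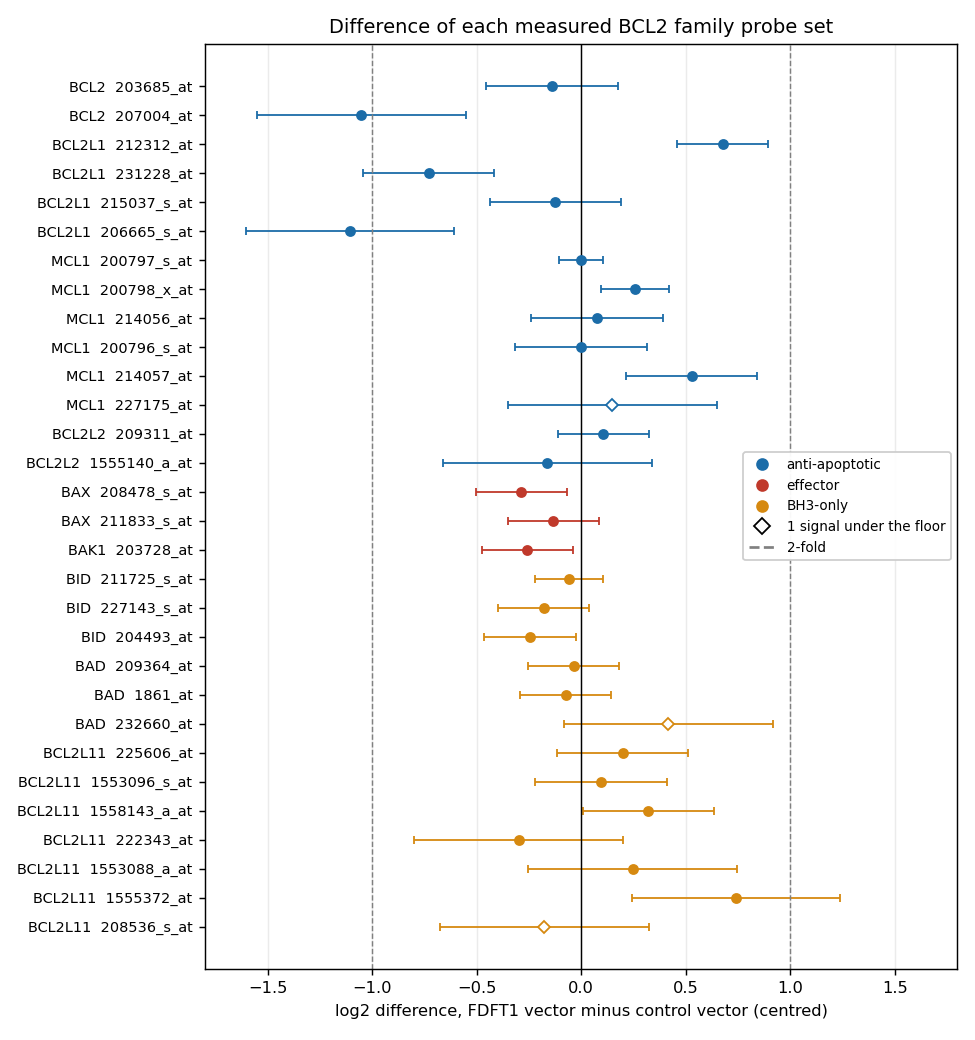
Centred log2 difference (FDFT1 vector minus control vector) of each of the 30 measured member probe sets, coloured by role; bars are 1 probe-level error, open diamonds have 1 signal under the floor, and dashed lines mark 2-fold. The 3 effector probe sets lie between -0.29 and -0.13, and the 4 BCL2L1 probe sets spread from -1.11 to 0.68.

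The change of the pro-apoptotic side against the anti-apoptotic side depends little on a common shift of an array, which acts on it only through the floor. It was -0.066 after centring and -0.064 for signals as deposited. Classes were set by gene and not by transcript. Probe set 206665_s_at of BCL2L1, at -1.11 and annotated with the pro-apoptotic short form, therefore counts as anti-apoptotic here. Over all measured probe sets, the 16 pro-apoptotic ones had a median of -0.07 and the 14 anti-apoptotic ones -0.0015, so the pro-apoptotic median was lower by 0.07 (a difference of -0.07). Among probe sets with a signal at or above 99.4, 8 of 9 pro-apoptotic probe sets lay below 0, with a median of -0.13, and 3 of 4 anti-apoptotic ones above, with a median of 0.18. These came from 5 and 3 genes, and of all probe sets with such signals 51.9% lay below 0 and 48.1% above, with a median of -0.0093. The difference was then -0.31, from few probe sets, of which 212312_at of BCL2L1 lay highest. With 1 value per gene, it was -0.11 for the brightest probe set and 0.01 for the average over each gene, and without probe sets ending in _x_at or _s_at it was 0.0052, so its sign depended on which probe sets were used and how they were combined. With 1 array per line, no spread between cultures is known against which to set a difference of this size.

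**Figure D4:**
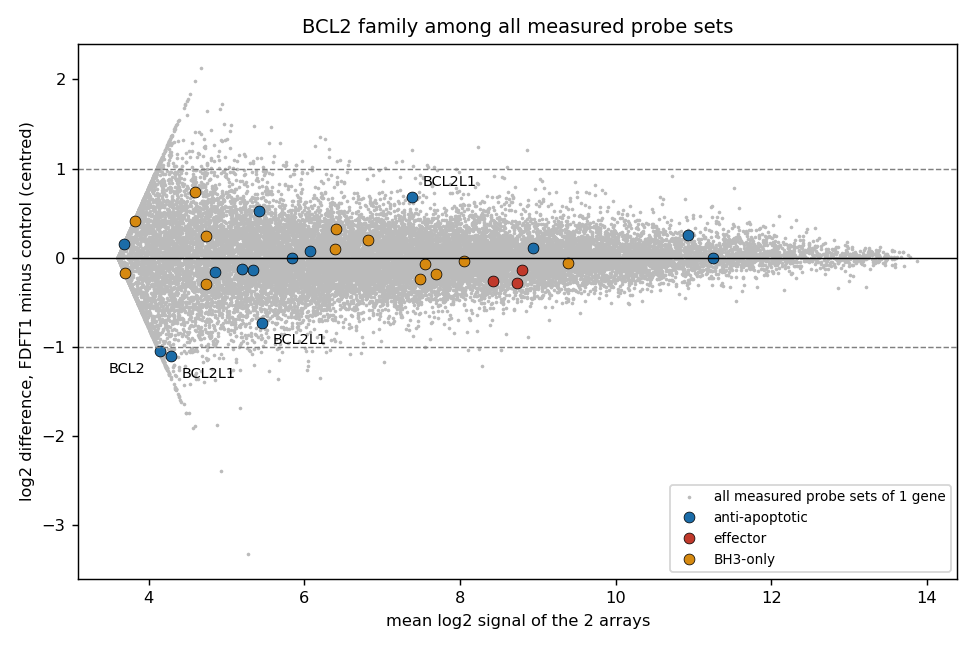
Centred log2 difference (vertical axis, FDFT1 vector minus control vector) against the mean log2 signal of the 2 arrays for the 24949 measured probe sets of 1 gene (grey) and the 30 member probe sets (coloured by role), with dashed lines at 2-fold. The members past 2-fold, 1 probe set each of BCL2 and BCL2L1, lie at the dim end, where the grey cloud is widest, and the bright BCL2L1 probe set lies near its upper edge at 0.68.

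Genes around the family were compared in the same way. By the brightest measured probe set of each gene, 73 other apoptosis genes were measured, 38 above 0 and 35 below, with a median of 0.01. None of them was at least 2-fold different, 1 was at least 1.5-fold higher and none lower, beside 0.656% and 0.649% of all 13106 measured genes past 2-fold and 4.14% and 3.40% past 1.5-fold. Most of these 73 genes were bright, and bright probe sets passed 1.5-fold less often. Of all 12591 measured probe sets with a signal at or above 99.4, 188 were at least 1.5-fold higher and 132 at least 1.5-fold lower. The low count was therefore not particular to these genes. The one gene past 1.5-fold was HRK, a BH3-only gene, at 0.60 (51.7 and 72.9, error 0.31, 3 of 4 probe sets higher). Of the 11 other family members 7 were measured, 2 above 0 and 5 below. BCL2L12 was at 0.09 and BCL2L13, a mitochondrial relative, at -0.25, where 4 of its 5 probe sets lay above 0; BCL2L10 was at -0.55 or lower with its FDFT1 signal under the floor. The BH3-only genes PMAIP1, which encodes NOXA, and BIK were at -0.11 and -0.17, and the effector relative BOK was at -0.18. For PMAIP1 and for BOK, 1 of 2 probe sets lay above 0. PMAIP1, BIK and BOK were picked as examples with their values known. All 5 BNIP and beclin genes were measured and 4 lay above 0, from BNIP3, a mitophagy receptor, at -0.03 to BECN1, the autophagy protein beclin-1, at 0.25 and BNIP2 at 0.44 (455 and 573, error 0.16).

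Downstream of the mitochondrion, 3 of 8 genes lay above 0 and 5 below. CASP9, the initiator caspase of the apoptosome, was at -0.55 (175 and 111, error 0.22) with 1 of 2 probe sets below 0, and AIFM1 was at -0.22. APAF1, the scaffold of the apoptosome, was at 0.27 and ENDOG, a mitochondrial nuclease, at 0.33. Of the 5 measured inhibitors of apoptosis 4 lay above 0, among them XIAP at 0.33 (691 and 808, error 0.16, 4 of 7 probe sets higher) and BIRC7 at 0.26 or more from a signal under the floor, with BIRC6 at -0.14. The 7 measured genes for channels of the mitochondrial membranes and their partners were bright. They ranged from PPIF at -0.08 and SLC25A5 at -0.04 to SLC25A4 at 0.14 and VDAC3, a porin, at 0.20.

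Regulators of single members were close to 0 in most cases. Among genes that act on MCL1 turnover, 3 of 7 lay above 0. The ubiquitin ligase subunit FBXW7 was at 0.25 and the deubiquitinase USP9X at 0.01 (each with 3 of 4 probe sets above 0). BTRC was at -0.22 (1 of 3 above 0) and GSK3A at -0.19 (1 of 2 above 0). Among 14 genes that act on BAD, 6 lay above 0. SFN, a 14-3-3 protein, was at 0.37 and PRKACA at 0.24 (each with 2 of 2 probe sets above 0). PPP3CA was at -0.40 (1 of 3 above 0) and the kinase AKT2 at -0.34 (2 of 6 above 0). Of 6 genes that act on BCL2L11, 3 lay above 0: the dynein light chains DYNLL1 and DYNLL2 were at 0.07 each, against RUNX3 at -0.36 and FOXO1 at -0.14. The FOXO1 signals, 19.0 and 16.0 with an error of 0.50, may be background. Of 5 genes that lead from death receptors to BID, 3 lay above 0. CASP8 was at 0.58 (112 and 156, error 0.22), and the other of its 2 probe sets lay below 0. TNFRSF10B was at 0.07 (2 of 4 probe sets above 0), against TNFRSF10A at -0.08 and FADD at -0.02. Of 9 transcription factors 6 lay above 0, with NFKB1 at 0.25 and STAT5B at 0.24 (2 of 5 probe sets above 0). On the lower side, E2F1 was at -0.50 (177 and 116, error 0.22, 2 of 2 probe sets lower) and DDIT3 at -0.15.

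**Figure D5:**
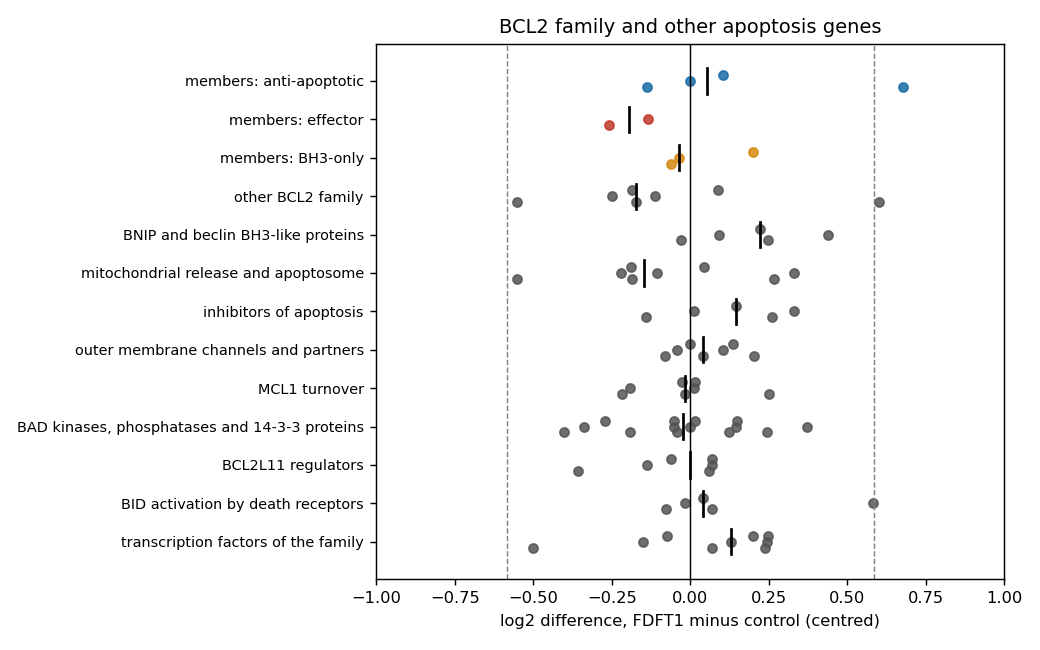
Centred log2 difference (FDFT1 vector minus control vector) of the brightest measured probe set of each gene, by list, with the list median as a vertical bar and dashed lines at 1.5-fold. BCL2L1 at 0.68 and HRK at 0.60 lie beyond the dashed lines, and all other genes shown lie between them.

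The identity of the cells was checked on the same arrays. Of 12 alveolar type II markers 7 were measured and 2, ETV5 and LPCAT1, had a bright signal, while SFTPC (29.3 and 16.9) and SFTPB (32.0 and 35.3) may be background, so the type II label is not borne out by surfactant signals. None of 8 epithelial, 7 blood and immune, or 10 fibroblast and endothelial markers with a probe set had a signal at or above 99.4 on the brightest one. The epithelial markers, of which 4 of 8 were measured, gave no signal above 20.1 on the brightest probe set. An epithelial identity is therefore not borne out by them either, though probe sets listing several genes were not used. No value of FDFT1 was used, and the overexpression itself is unchecked here.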

How the data were processed

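The values are intensities on a linear scale, 1 MAS5 signal per probe set and array, as deposited by the authors; the submitters' processing notes name MAS5. The software version, the scaling and any detection calls were not given in the sources used here. Each array reported 54675 probe sets, and 62 control probe sets were set aside. For arrays, their number limits the precision: there was 1 per group. Groups were taken from the sample titles.

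Signals were put on the log2 scale, centred on the median difference of probe sets at or above the floor in both arrays, and then floored. Probe sets whose annotation listed 1 gene (41091) were used, 1801 with several genes and 11721 with none were not; of the first, 41037 were found by Entrez identifier among the RefSeq genes of GRCh38.p14, and no symbol differed. The probe-level error is the root mean square difference between a gene's 2 brightest measured probe sets, divided by the square root of 2, where both lay in 1 signal range. Every member probe set is named; in each other apoptosis gene list the 2 genes highest above 0 and the 2 lowest below 0 are named, plus any past 1.5-fold. Cell type markers are named as examples, with values known. The members and lists were chosen with earlier results of these data known. The steps were tested on simulated data. Alternatives were other scalings (none, quantile, loess with a span of 0.3), a floor at the 75th percentile or none, leaving out _x_at and _s_at probe sets, 1 value per gene, and a 3-fold threshold. Calculations used Python 3.11.15 with pandas 2.3.3, numpy 2.4.6, statsmodels 0.14.6 and scipy 1.17.1, and plots matplotlib 3.10.9.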

Additional observations from a re-analysis of the deposited data

How the results depend on the processing

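No paired analysis was possible because there is 1 array per group. Signals as deposited left 1 member probe set at least 1.5-fold higher in place of 2, as 212312_at of BCL2L1 fell short at 0.57. Without a floor 1 probe set, of BAD, was at least 2-fold higher. With the floor at the 75th percentile none was at least 2-fold lower (0), 1 was at least 1.5-fold higher and 0 lower; the anti-apoptotic median was 0.18 and the pro-apoptotic minus anti-apoptotic difference -0.31, since 13 of the 30 probe sets were left. Without _x_at and _s_at probe sets 1 was at least 2-fold lower and the BH3-only median was 0.20, from fewer probe sets. With the mean per gene the anti-apoptotic median was -0.17 and the BH3-only median 0.10. At 3-fold, 0 were lower. Quantile and loess scaling moved none of the counts, and no median by more than its probe-level error. Of single probe sets, 3 changed sign without centring (1 each of BCL2L11, BCL2L2 and MCL1), all from differences near 0, 200796_s_at of MCL1 did with quantile and with loess, and 200797_s_at of MCL1 with the higher floor. The pro-apoptotic minus anti-apoptotic difference was 0.0052 without _x_at and _s_at probe sets and 0.01 with the mean per gene. The effector median stayed below 0 in every setting tried, between -0.37 and -0.20. All 3 effector probe sets lay above both floors, and without _s_at probe sets 203728_at of BAK1 was left alone. These settings therefore say little about the sign of that median. Dim signals limit what can be said of BCL2 and of the lower BCL2L1 probe sets.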
